A study of Zea mays with 9 samples.

Results

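The 133 maize genes described here stood higher in germinating seeds under salt than in control seeds and also stood higher under salt with melatonin. They were chosen from all 39301 genes of a deposited table of FPKM values, which count fragments relative to gene length and library size. With L as log2(group mean FPKM + 1), a member had L at least 1 above CK in both the NaCl and the NaCl+MT group, and each of its NaCl and NaCl+MT values lay above each of its CK values. A further clause, which leaves out genes much higher in NaCl+MT than in NaCl (by 0.8 or more in L, without overlap), left out 0 genes. The rule used all 9 libraries and all 3 contrasts, so the members' differences are descriptions and no p-value is given for them. NaCl against CK and NaCl+MT against CK share the CK libraries, and the 2 sets of differences are set side by side only.

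The libraries come from seeds of Zea mays at germination, in 3 groups of 3 biological replicates labelled CK, NaCl and NaCl+MT. CK commonly stands for untreated controls, and the series title names salt stress and exogenous melatonin. No dose, time, maize line or number of seeds per library is given in the sources used here, nor whether melatonin came before or with the salt. Replicates are labelled as biological, and a seed holds several tissues, so fewer cells of a type and less RNA per cell cannot be told apart.

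Salt reaches a germinating seed as a shortage of water and as an excess of sodium and chloride ions. Plants answer with hormone signalling, in which ethylene response factors take part, with chaperones that keep proteins folded, with detoxifying enzymes, and with defence proteins and defence metabolites. Melatonin is an indoleamine made from tryptophan that plants produce themselves and that is applied to seeds in studies of stress tolerance.

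The genes were raised in both salt groups, but the word "kept" holds in full for the smaller number of them. The NaCl+MT level was below the NaCl level in 110 of the 133 genes, and 60 of these were lower by 1 or more in L. In 23 genes the NaCl+MT level was at or above the NaCl level. The rise from CK to NaCl had a median of 2.09 in L, with quartiles of 1.31 and 2.85 and a highest value of 5.77. The rise from CK to NaCl+MT had a median of 1.22 and ran only from 1.001 to 2.04, with 1 gene at 2 or more.

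**Figure D1:**
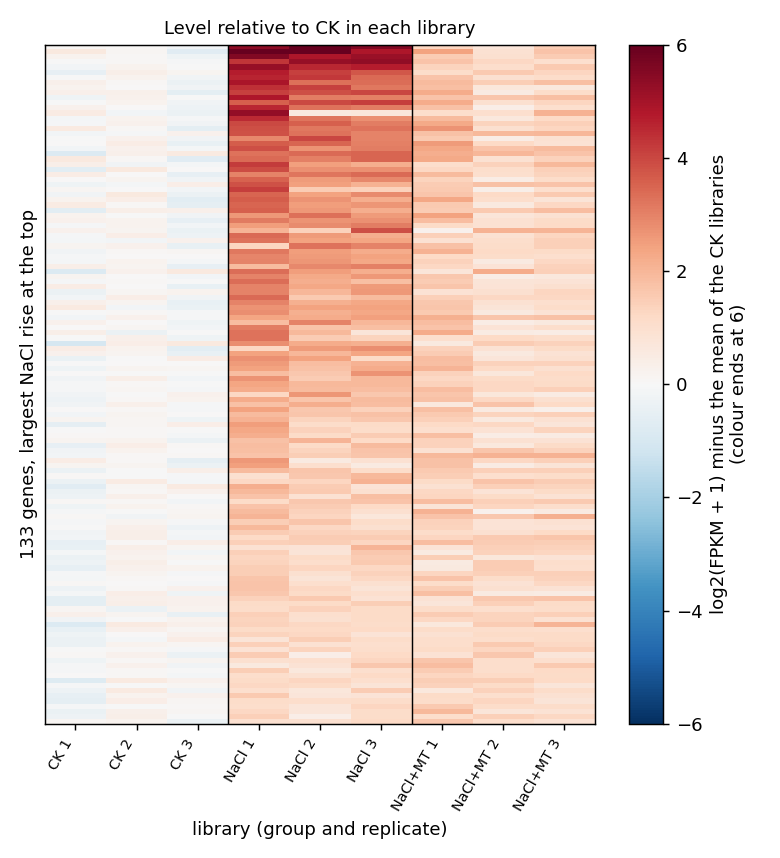
Each row is 1 of the 133 genes, ordered by the rise from CK to NaCl, and each column is a library. Colour gives log2(FPKM + 1) minus the mean of the gene's CK libraries, so white is the CK level and red is above it. The NaCl columns are darkest for the genes at the top, while the NaCl+MT columns stay pale red from top to bottom, which follows their range of 1.001 to 2.04 in L.

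Expressed as a share of the NaCl rise in L, the NaCl+MT rise had a median of 60.2%, from 21.2% to 142.6%. In 32 genes at least 90% of the rise was seen with NaCl+MT, in 57 genes from 50 to 90%, and in 44 genes less than 50%. The share was smaller where the NaCl rise was larger. It had a median of 89.4% in the 65 genes with a NaCl rise of 1 to 2, 47.9% in the 41 genes with a rise of 2 to 3 and 36.6% in the 27 genes with a rise of 3 or more. This order is built into the share, because the NaCl+MT rise was of nearly the same size in the 3 classes, with medians of 1.15, 1.19 and 1.41 in L.

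**Figure D2:**
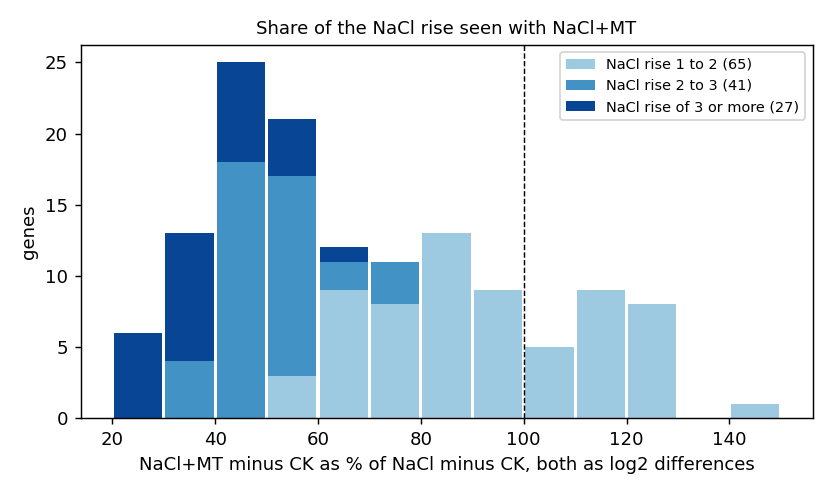
The histogram counts the 133 genes by the share of the NaCl rise seen with NaCl+MT, both as differences in L from CK. Colours separate NaCl rises of 1 to 2 (65 genes), 2 to 3 (41 genes) and 3 or more (27 genes), and the dashed line marks equal rises, which 23 genes passed.

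The values themselves divided the genes in a similar way. In 61 genes each NaCl+MT value lay below each NaCl value, in 70 the groups overlapped, and in 2 each NaCl+MT value lay above each NaCl value. Among all 22379 genes tested, 15.4% had NaCl+MT values wholly below and 21.2% wholly above. In limma's moderated test with Benjamini-Hochberg adjustment over all tested genes, 51 members were called lower in NaCl+MT than in NaCl (background 7.02%) and 1 was called higher (background 11.6%). In the same fit 130 members were called higher in NaCl than in CK (background 13.6%) and 47 in NaCl+MT than in CK (background 0.679%). Each of these contrasts was used by the rule, so nothing is read from the counts. The count of 47 depended on single libraries: it was 14, 18 and 17 without CK replicate 1, 2 or 3, 101 without NaCl replicate 1, and 13, 7 and 3 without NaCl+MT replicate 1, 2 or 3. With the replicate number as a block it was 28.

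**Figure D3:**
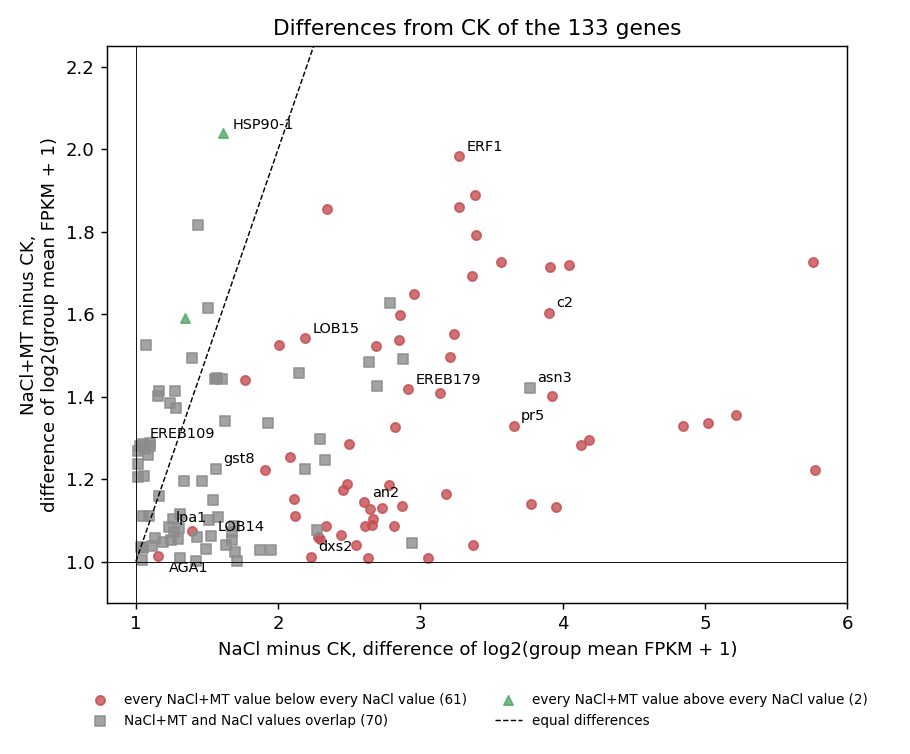
Each point is 1 of the 133 genes, with its rise from CK to NaCl on the x axis and from CK to NaCl+MT on the y axis, both as differences of log2(group mean FPKM + 1). Colour and shape show whether NaCl+MT values lay below (61), across (70) or above (2) the NaCl values, the dashed line marks equal rises, and the solid lines mark the limits of 1. The 14 genes with a gene name are labelled.

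Reference gene symbols were available for few members. Of the 133 IDs, 73 (54.9%) matched exactly 1 RefSeq gene, against 46.8% of all IDs in the table, and 14 had a name other than a locus or marker number. Of the matched members 68 are annotated as protein coding, 4 as transcribed pseudogenes and 1 as a long noncoding RNA. The 14 named genes hold transcription factors, a chaperone, a glutathione S-transferase, enzymes of diterpenoid, isoprenoid and flavonoid synthesis, a pathogenesis-related protein, and genes of phytate, galactoside and asparagine metabolism. How reads shared by near-identical copies were counted is not given in the sources used here, which bears on the members of gene families.

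**Figure D4:**
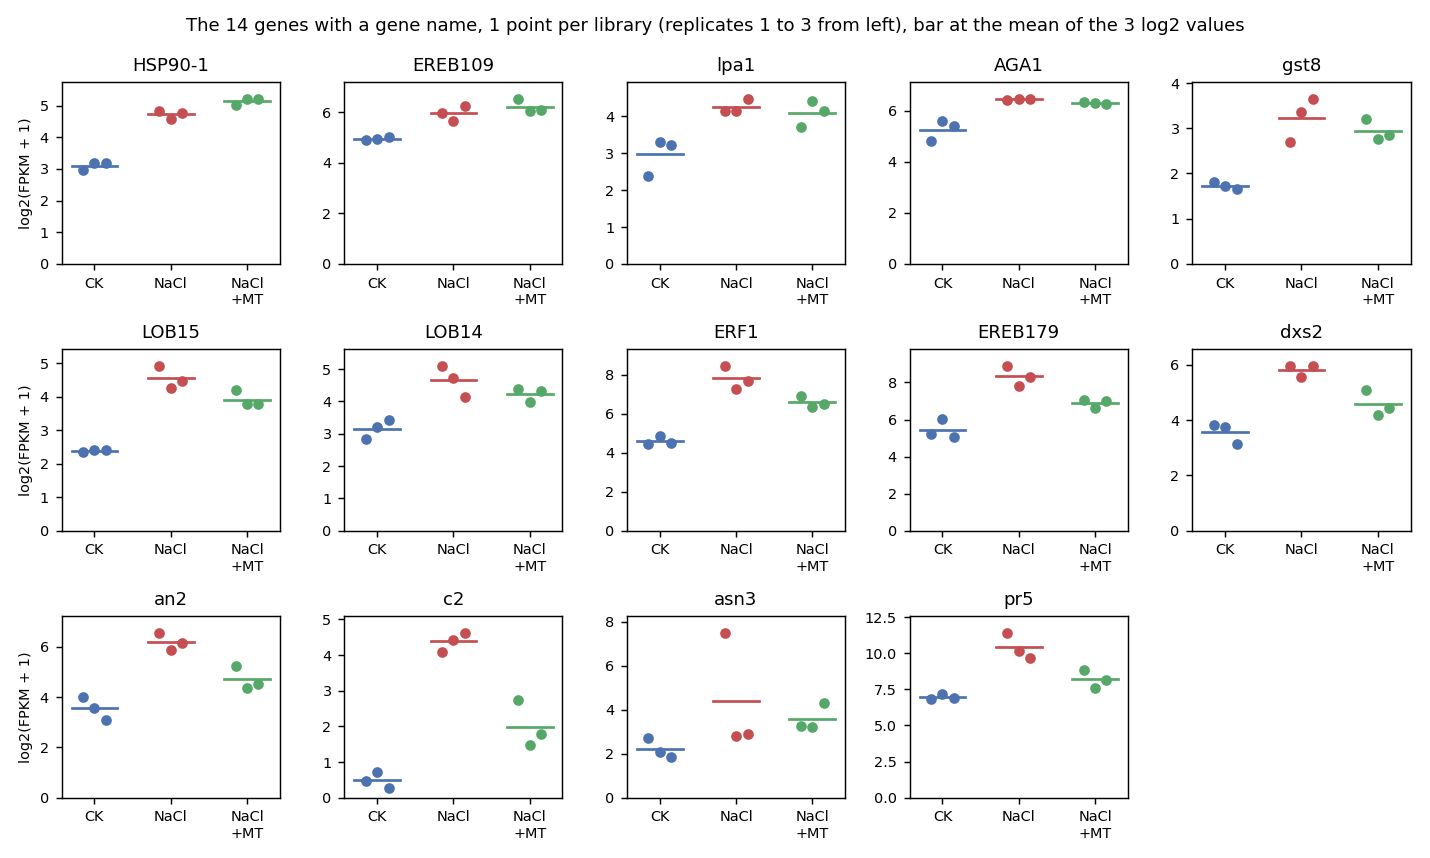
Each panel is a gene with a gene name, ordered by the share of the NaCl rise seen with NaCl+MT, from HSP90-1 at 126% to pr5 at 36.4%. Points are log2(FPKM + 1) in the 3 replicates of CK, NaCl and NaCl+MT, and bars are the means of the 3 log2 values. In asn3 a lone NaCl library stands far above the other two.

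Among the transcription factor genes, 3 belong to the ethylene response factor family, whose proteins bind DNA through an AP2 domain. ERF1 (GRMZM2G053503) had FPKM values of 21.2, 28.6 and 21.6 in CK replicates 1 to 3, 354, 156 and 206 in NaCl, and 121.5, 79.9 and 89.4 in NaCl+MT. The 3 groups did not overlap, and NaCl+MT lay between the others. Its rise in L was 3.27 with NaCl and 1.98 with NaCl+MT, the largest NaCl+MT rise among the named genes after that of HSP90-1.

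EREB179 (GRMZM2G129674) had a like order at a higher level, with 35.6, 63.6 and 32.2 in CK, 476, 226 and 307 in NaCl, and 134, 96.1 and 126 in NaCl+MT. Its groups were also separate, with rises in L of 2.91 and 1.42. EREB109 (GRMZM2G141679) differed from both, at 28.5, 29.5 and 31.8 in CK, 62.4, 49.8 and 74.5 in NaCl, and 91.4, 64.9 and 66.2 in NaCl+MT. Its NaCl and NaCl+MT values overlapped, and its rises in L were 1.03 and 1.28.

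The list of ERF and DREB genes, matched by symbol, held 25 tested genes, of which 8 rose and 5 fell with NaCl against CK by limma, where 13.6% of all tested genes rose and 12.4% fell. The median log2 difference was 0.36, against 0.04 over all tested genes. Of the same 25, 2 rose with NaCl+MT against CK, where 0.679% of all tested genes rose (median 0.34, against 0.07 over all tested genes). These 2 were ERF1 and EREB109. The list includes the 3 members above, which the rule chose for their rises, so nothing is read from those 2 calls. EREB60 and EREB156, which are not members, had rises in L of 1.16 and 1.06 with NaCl and of 0.56 and 0.51 with NaCl+MT.

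LOB14 and LOB15 encode proteins with a lateral organ boundaries domain, a plant transcription factor family known from organ boundaries and lateral root formation. LOB15 (GRMZM2G060544) had FPKM values of 4.06, 4.26 and 4.34 in CK, 29.2, 18.1 and 21.2 in NaCl, and 17.2, 12.6 and 12.8 in NaCl+MT. Its NaCl+MT values all lay between the other groups, with rises in L of 2.19 and 1.54. LOB14 (GRMZM2G044902) had 6.08, 8.23 and 9.83 in CK, 33.3, 25.3 and 16.5 in NaCl, and 19.9, 14.96 and 18.8 in NaCl+MT, so that the 2 salt groups overlapped (rises of 1.53 and 1.06). Of 5 tested genes with a LOB symbol, a list added after the values were seen, 2 were called higher with NaCl (background 13.6%). These were the 2 members, which the rule chose for that rise, so nothing is read from the count.

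HSP90-1 (GRMZM2G024668), a gene of the HSP90 chaperones that hold many signalling proteins in an active fold, had the largest NaCl+MT rise of the 133 genes. Its FPKM values were 6.74, 8.14 and 8.06 in CK, 27.3, 22.97 and 26.2 in NaCl, and 31.8, 36.1 and 35.8 in NaCl+MT. The groups did not overlap and NaCl+MT was the highest, with rises in L of 1.62 and 2.04. The other gene whose NaCl+MT values all exceeded its NaCl values was GRMZM2G166218, which has only a locus number, at 2.21, 3.70 and 4.99 in CK, 10.995, 11.4 and 9.88 in NaCl, and 15.4, 11.8 and 11.7 in NaCl+MT.

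Of 28 tested heat shock genes 6 rose and 3 fell with NaCl, and 2 rose with NaCl+MT against CK, HSP90-1 among both. The rule chose HSP90-1 for those rises. Over all tested genes 13.6% rose and 12.4% fell with NaCl, and 0.679% rose with NaCl+MT. The other gene that rose with NaCl+MT against CK was hsp101 (GRMZM2G360681), whose product dissolves protein aggregates. It had 6.04 ± 0.397 FPKM (SD, n = 3) in CK, 8.41 ± 0.874 in NaCl and 13.8 ± 0.561 in NaCl+MT. Its rise in L was 1.07 with NaCl+MT (limma adjusted p = 0.007) and 0.42 with NaCl, which left it outside the rule. The limma adjusted p of the NaCl+MT difference was 0.0542 without NaCl+MT replicate 2 and 0.0592 without NaCl+MT replicate 3, and the call was lost there. The small heat shock gene hsp18c (GRMZM2G034157) went the other way, with 2.89 ± 0.438 FPKM in CK, 9.66 ± 0.392 in NaCl and 2.60 ± 0.315 in NaCl+MT (NaCl+MT against NaCl, limma adjusted p = 8.53e-05). HSP90-2 (GRMZM2G012631) did not share the rises of HSP90-1, with mean FPKM of 185 in CK, 188 in NaCl and 184 in NaCl+MT. Means of hsp82 (GRMZM5G833699) were 0.971, 2.31 and 1.06 in the same order. The median log2 difference of the 28 genes was 0.38 with NaCl and 0.31 with NaCl+MT, against 0.04 and 0.07 over all tested genes.

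Glutathione S-transferases join glutathione to reactive and foreign compounds. The member gst8 (GRMZM2G156877) had FPKM values of 2.51, 2.29 and 2.15 in CK, 5.47, 9.32 and 11.6 in NaCl, and 8.27, 5.75 and 6.22 in NaCl+MT. Its salt groups overlapped, with rises in L of 1.56 and 1.22. Of 31 tested genes of the family 12 rose, gst8 among them, and 3 fell with NaCl (background 13.6% and 12.4%). With NaCl+MT against CK 1 rose (background 0.679%), which was gst8. The rule chose gst8 for its rises, so nothing is read from that 1 call. The median log2 difference of the 31 genes was 0.42 with NaCl and 0.23 with NaCl+MT, against 0.04 and 0.07 over all tested genes. The gene gst7 (GRMZM2G028556), which is not a member, had a larger NaCl rise of 2.78 (limma adjusted p = 2.17e-05) and a rise of 0.44 with NaCl+MT (adjusted p = 0.337).

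Among the members were 2 genes of isoprenoid and diterpenoid synthesis. The gene dxs2 encodes 1-deoxyxylulose 5-phosphate synthase, the entry step of the plastid isoprenoid pathway, and an2 encodes an ent-copalyl diphosphate synthase that leads to maize diterpenoid defence compounds. FPKM values of dxs2 (GRMZM2G493395) were 13.2, 12.5 and 7.75 in CK, 61.4, 45.8 and 61.2 in NaCl, and 32.8, 17.0 and 20.8 in NaCl+MT. Those of an2 (CPPS2, GRMZM2G044481) were 15.2, 10.9 and 7.62 in CK, 93.4, 57.9 and 69.4 in NaCl, and 36.5, 19.7 and 21.9 in NaCl+MT. In both genes the groups were separate and NaCl+MT replicate 1 was the highest of its group. Rises in L were 2.23 and 1.01 for dxs2, and 2.61 and 1.14 for an2.

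A gene of the next step and a kaurene synthase-like gene fell short of the rule on the NaCl+MT side. The gene dxr (GRMZM2G056975), whose enzyme acts directly after that of dxs2, had 13.2 ± 3.53 FPKM (SD, n = 3) in CK, 77.8 ± 19.3 in NaCl and 20.2 ± 1.39 in NaCl+MT, with rises in L of 2.48 (limma adjusted p = 3.79e-05) and 0.58 (adjusted p = 0.183). KSL4 (GRMZM2G016922), the kaurene synthase-like gene, had 2.52 ± 0.495 FPKM in CK, 12.5 ± 2.52 in NaCl and 5.66 ± 2.24 in NaCl+MT, with rises of 1.94 (limma adjusted p = 0.000278) and 0.92 (adjusted p = 0.0983). The members dxs2 and an2 were not called in NaCl+MT against CK by limma either. With its NaCl+MT rise of 1.01, dxs2 passed the limit of 1 narrowly. The terpene list, matched by symbol, also takes in high mobility group chromatin genes such as MNB1B. Several of its IDs share the symbol TPS9, and the products behind its TPS symbols were not checked. Its counts are therefore not a measure of terpene genes alone. Of its 27 tested genes 7 rose and 10 fell with NaCl (background 13.6% and 12.4%), with a median log2 difference of -0.11 against 0.04 over all tested genes. The 7 include dxs2 and an2, which the rule chose for their rises. With NaCl+MT against CK 0 of the 27 rose and 2 fell, where 152 and 63 of all 22379 tested genes did. The median log2 difference there was 0.095, against 0.065 over all tested genes. The 2 that fell were EDS (limma adjusted p = 0.0051) and CCD8 (adjusted p = 0.0197). Mean FPKM in CK, NaCl and NaCl+MT were 19.44, 0.065 and 4.055 for EDS, and 4.92, 0.128 and 1.42 for CCD8.

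The gene c2 (GRMZM2G422750) encodes chalcone synthase, the first committed step of flavonoid synthesis. It had FPKM values of 0.39, 0.64 and 0.21 in CK, 15.95, 20.6 and 23.7 in NaCl, and 5.64, 1.77 and 2.45 in NaCl+MT. All 3 groups were separate, and the rises in L were 3.90 and 1.60, so 41.1% of the NaCl rise was seen with NaCl+MT. Its CK values are low, and the rises grew with a smaller pseudocount, to 5.30 and 2.73 at 0.1. The related chalcone synthase gene whp (GRMZM2G151227) had lower levels in the same order, with 0.0787 ± 0.0107 FPKM in CK, 2.91 ± 2.56 in NaCl and 0.764 ± 0.443 in NaCl+MT. The phenylpropanoid and flavonoid list, also matched by symbol, takes in the zein gene bz15, which was called in neither direction. Among its 22 tested genes, 7 rose and 2 fell with NaCl (background 13.6% and 12.4%), and 1, which was c2, rose with NaCl+MT against CK (background 0.679%). The rule chose c2 for its rises, so nothing is read from that 1 call. The median log2 difference of the 22 genes was 0.33 with NaCl and 0.22 with NaCl+MT, against 0.04 and 0.07 over all tested genes.

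The pathogenesis-related gene pr5 (GRMZM2G402631) encodes a thaumatin-like protein of the kind that accumulates under pathogen attack and osmotic stress. Its FPKM values were 113, 141 and 117.5 in CK, 2735, 1151 and 825 in NaCl, and 458, 191 and 288 in NaCl+MT. The groups did not overlap, but both salt groups spread widely, with replicate 1 the highest of each. The rises in L were 3.66 and 1.33, and 36.4% of the NaCl rise was seen with NaCl+MT, the smallest share among the named genes. Of 15 tested genes of the pathogenesis-related and chitinase list, matched by symbol, 5 rose and 3 fell with NaCl (background 13.6% and 12.4%). The 5 include pr5, which the rule chose for its rises. The median log2 difference was 0.042, against 0.035 over all tested genes. With NaCl+MT against CK 0 of the 15 rose (background 0.679%) and 0 fell, so pr5 was not called there.

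The genes lpa1, AGA1 and asn3 belong to phytate, galactoside and asparagine metabolism, in that order. The gene lpa1 (GRMZM5G820122) encodes a transporter of the multidrug resistance-associated type needed for phytate storage in the seed. It had FPKM values of 4.26, 8.96 and 8.36 in CK, 16.7, 16.8 and 21.2 in NaCl, and 12.2, 20.2 and 16.7 in NaCl+MT. Its salt groups overlapped and were nearly level, with rises in L of 1.23 and 1.08.

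AGA1 (GRMZM2G340656), an alkaline alpha-galactosidase gene whose type of enzyme releases galactose from raffinose-family sugars, had 27.2, 47.0 and 41.1 in CK, 84.6, 87.8 and 87.7 in NaCl, and 80.7, 79.3 and 75.7 in NaCl+MT. The salt groups were separate although their levels differed little, since the replicates of each lay close together. Its rises in L were 1.15 and 1.01.

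The gene asn3 (GRMZM2G053669), an asparagine synthetase gene, met the rule through a lone library. It had FPKM values of 5.47, 3.17 and 2.66 in CK, 179.6, 5.99 and 6.36 in NaCl, and 8.47, 8.20 and 18.65 in NaCl+MT. Without NaCl replicate 1 its NaCl rise in L was 0.59 instead of 3.77, and NaCl+MT stood 0.83 above NaCl instead of below it.

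The largest NaCl rises were in genes without a gene name, described here by ID and chosen after their values were seen. GRMZM2G075459 had FPKM values of 0.725, 0.665 and 0.378 in CK, 63.6, 120.5 and 73.2 in NaCl, and 2.91, 1.60 and 3.62 in NaCl+MT, so the NaCl rise in L was 5.77 and 21.2% of it was seen with NaCl+MT. GRMZM2G043878 reached 2058, 1559 and 724 in NaCl from 36.5, 25.97 and 14.8 in CK, and had 134.8, 46.8 and 80.9 in NaCl+MT. In both genes NaCl+MT lay near CK on the scale of the NaCl values, yet above each CK value.

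At the other end, AC177838.2_FG015 had the highest share, 142.6%, at 1.23, 1.85 and 1.03 in CK, 2.56, 3.28 and 6.08 in NaCl, and 7.54, 3.87 and 6.06 in NaCl+MT. Its salt groups overlapped, and its levels were low throughout.

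A pair of members with similar profiles were also near neighbours. GRMZM2G147399 and GRMZM2G131421 lay with 1 protein-coding gene between them in the RefSeq order, and they were the only pair so close among the 68 protein-coding members placed in it. GRMZM2G147399 had 18.3, 16.7 and 13.2 FPKM in CK, 801, 494 and 609 in NaCl, and 48.4, 31.7 and 47.9 in NaCl+MT. GRMZM2G131421 had 7.51, 10.03 and 8.45 in CK, 362, 217 and 253 in NaCl, and 23.4, 19.1 and 27.4 in NaCl+MT. The NaCl rises in L were 5.22 and 4.85 and the NaCl+MT rises 1.35 and 1.33, and in both genes NaCl replicate 1 was the highest library. A further pair of IDs names the same clone, AC197705.4, but differed in profile: AC197705.4_FG001 rose to 82.4, 162 and 173 in NaCl and had 13.0, 9.06 and 7.61 in NaCl+MT, while AC197705.4_FG003 stayed between 8.89 and 11.8 in all 6 salt libraries.

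The summed FPKM of the 133 genes was 0.292%, 0.349% and 0.295% of the library's total in CK, 3.32%, 2.20% and 1.91% in NaCl, and 0.991%, 0.666% and 0.786% in NaCl+MT. The 3 groups of sums did not overlap. Their standing above CK follows from the rule. The rule does not require NaCl and NaCl+MT to be separate, but its clause and its limits against CK shape that contrast too. Nothing is therefore read from the separation of these sums. The 5 genes with the highest NaCl means (GRMZM2G112488, pr5, GRMZM2G043878, GRMZM2G472248 and GRMZM2G147399) made up 42.8 to 49.9% of that sum in NaCl and 29.7 to 35.0% in the other 6 libraries. GRMZM2G112488 was the highest in CK, at 274, 347 and 274 FPKM, and had 2312, 1891 and 1477 in NaCl and 766, 435 and 709.5 in NaCl+MT. The median gene had a mean of 4.20 FPKM in CK, 23.9 in NaCl and 12.2 in NaCl+MT. In CK 13 genes had a mean under 1, and 1 gene was listed at 0 in a CK library.

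**Figure D5:**
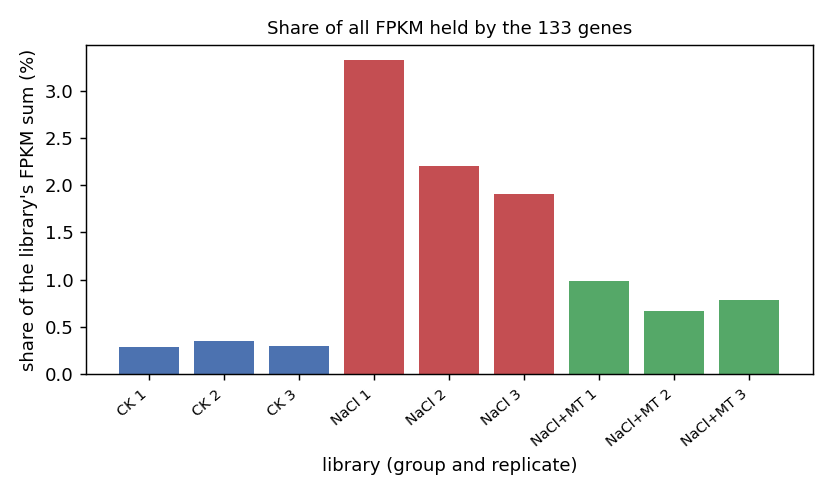
Bars give the summed FPKM of the 133 genes as a percentage of all FPKM in each library. CK libraries lie between 0.292 and 0.349%, NaCl libraries between 1.91 and 3.32% and NaCl+MT libraries between 0.666 and 0.991%.

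The replicates of a group were not equally high. NaCl replicate 1 held the highest NaCl value in 66.2% of the members (31.9% of all tested genes), NaCl+MT replicate 1 the highest NaCl+MT value in 63.9% (42.2%), and CK replicate 2 the highest CK value in 53.4% (27.1%). The median SD of log2(FPKM + 1) within a group was 0.295 in CK, 0.435 in NaCl and 0.335 in NaCl+MT for the members, against 0.184, 0.245 and 0.152 for all tested genes. Without NaCl replicate 1 the median NaCl rise of the members was 1.73 in L, the median share seen with NaCl+MT was 72.9%, and 65 genes had NaCl+MT values wholly below NaCl. Without NaCl+MT replicate 1 the median NaCl+MT rise was 1.12, and in 45 genes it was under 1. The part of these libraries' state in the members' values was not tested.

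With CK replicate 1 as 1, the relative depth read from the steps between low FPKM values was lowest in NaCl replicate 3 (0.537) and highest in CK replicate 2 (1.81). These are rough, since only 68.2% of the values used in NaCl replicate 3 and 70.5% in CK replicate 2 fell on whole steps. In CK replicate 1 and the NaCl+MT libraries, which set the steps, 99.4 to 100% did. The absolute depth is unknown, so no counting intervals are given. At 0 stood 12558 genes of NaCl replicate 3, and 9986 to 10802 genes of each other library. Of 6 seed reserve markers (globulins, oleosins, isocitrate lyase and amylase) 5 were at 1 FPKM or more in each library, with a summed level of 3053 to 3961 in NaCl, 4025 to 4184 in NaCl+MT and 3035 to 4674 in CK. Of 25 endosperm storage protein symbols 1 to 3 reached 1 FPKM and 13 to 19 were at 0. Of 12 symbols matched as green leaf markers 3 to 5 reached it, with summed levels of 461 to 599 in NaCl, 574 to 920 in NaCl+MT and 731 to 1190 in CK. The 12 include pyruvate phosphate dikinase symbols such as CYPPDKZM2, so these sums are not a measure of leaf photosynthesis genes alone.

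The rule was met by a small part of the salt-raised genes. Its salt part was met by 1310 genes, of which the 133 are 10.2%. Of the other 1177, 548 had NaCl+MT values above each CK value with a rise under 1, 620 overlapped CK with a rise under 1, and 9 overlapped CK with a rise of 1 or more. The melatonin part was met by 257 genes, and the members are 51.8% of these.

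The limits fell in a dense stretch of values. Among genes that met the rest of the rule, 40 had an NaCl+MT rise less than 0.1 above the limit of 1 and 56 less than 0.1 below it. GRMZM2G061527 and GRMZM2G425798 were the nearest inside, at 1.001 and 1.002, and GRMZM2G089952 and GRMZM2G380561 the nearest outside, at 0.997 and 0.996. On the NaCl side the nearest outside was glb1 (GRMZM2G067919), the embryo storage globulin gene, with a rise of 0.999, beside 1.03 with NaCl+MT. Its FPKM values were 4.17, 3.05 and 2.04 in CK, 6.22, 5.37 and 9.92 in NaCl, and 10.8, 5.47 and 5.79 in NaCl+MT, all salt values above the CK values.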

How the data were processed

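RNA sequencing values of 9 maize seed libraries were used. The authors deposited 1 FPKM value per gene and library, with replicates not pooled. HISAT2, featureCounts and DESeq2 are named without version or role, per the submitters' processing notes, with B73 RefGen_v3 as genome build. Counts and gene lengths were not used here, and 1 unnamed column was empty. Names came from RefSeq genes (Zm-B73-REFERENCE-NAM-5.0, which is another build, so no coordinates are given): of the 39301 IDs, 18908 matched and 18387 matched exactly 1 gene.

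The 22379 genes that reached 1 FPKM in 3 or more libraries, all 133 members among them, were fitted with limma 3.58.1 in R 4.3.3 on log2(FPKM + 1), with 3 group means, a mean-variance trend, no block and Benjamini-Hochberg adjustment at 0.05. Differences in L of low genes are drawn towards 0 by the pseudocount of 1. The fit was tested on simulated data. The members, gene lists and tests were chosen with earlier results of these data known. Lists were matched by symbol patterns. Genes described were the members with a gene name, list genes beside them and, by ID, extremes chosen after their values were seen. Promoter motifs and protein families were planned but not analysed here.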

Additional observations from a re-analysis of the deposited data

How the results depend on the processing

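The number of genes meeting the rule was 133 as reported. It was 238 and 533 with pseudocounts of 0.5 and 0.1, 86 after median-ratio scaling, 0 with a limit of 2 on both rises, and 118 to 215 when a library was left out, with 215 without CK replicate 2 and 118 without NaCl+MT replicate 1. Of the 133 genes, 86 still met the rule after median-ratio scaling and 88 without NaCl+MT replicate 1. Other readings of the clause, quantile normalisation and mean log2 values gave 99 to 133 genes.

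Over all genes, NaCl against CK had 5808 calls (3684 with a minimum of 5 FPKM, 2597 without NaCl replicates 1 and 3, a setting added after the data were seen, and 3908 to 6142 without a library), and NaCl+MT against NaCl had 4164 (2605, 1754 and 2325 to 4336). NaCl+MT against CK had 215 (54 with no low-value filter, 123 with a minimum of 5 FPKM, 1068 without NaCl replicates 1 and 3, and 6 to 875 without a library). Of the members, 47 were called higher in NaCl+MT than in CK (16 with no filter, 105 without NaCl replicates 1 and 3, 3 to 101 without a library), 130 higher in NaCl than in CK (119 to 131), and 51 lower in NaCl+MT than in NaCl (33 without NaCl replicates 1 and 3, 41 to 59 without a library). For these counts the cause was not tested.

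Same-numbered libraries did not deviate together (correlations of -0.368 to 0.145, 1 of 9 pairs over 0.1), and differently numbered pairs ran from -0.221 to 0.244. The correlations thus gave no sign that the numbers pair the samples. With 3 replicates per group they cannot exclude it. With the replicate number as a block NaCl+MT against CK had 72 calls and 28 members called. Of 546 differences of named genes recomputed, 2 changed sign: NaCl+MT minus NaCl was 0.83 for asn3 without NaCl replicate 1 (range without any library -2.88 to 0.83), and 0.017 for lpa1 without NaCl+MT replicate 1 (-0.316 to 0.017). A further 5 moved by more than the replicate spread. Motif shares and protein families were not run. The depth of single genes is unknown, which limits statements on genes under 1 FPKM.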
